A study of Mus musculus with 6 samples.

Results

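The genes described here are the 10 genes of the MHC class II presentation machinery that were listed for this work, found by their symbols among the 55394 genes of each file. They comprise the classical chains H2-Ab1, H2-Aa and H2-Eb1, the invariant chain Cd74, the peptide loaders H2-DMa, H2-DMb1 and H2-DMb2, the loader inhibitors H2-Oa and H2-Ob, and the regulator Ciita. All 10 symbols were present. The members were selected on earlier results of the same comparison of antibiotic exposure with control, so that comparison is given for them as a description. No p-value is given for a member, and counts of members past a threshold are given beside the background share, with nothing read from them.

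SMART-seq, a full-length RNA sequencing assay for small cell numbers, was performed on lung group 2 innate lymphoid cells (ILC2s) of neonatal C57BL/6 mice. There were 3 libraries from pups whose dams drank an antibiotic cocktail of ampicillin, metronidazole, neomycin and vancomycin from gestation day 10 to 14 (Abx group) and 3 from pups of control dams (Con group). Each library was made from 1000 sorted cells. How many pups went into each library is not given in the sources used here, so p-values measure the spread between these libraries, and that spread may be technical.

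MHC class II molecules are heterodimers of an alpha and a beta chain that display peptides from the endosome to CD4+ T cells. The invariant chain escorts new dimers to the endosome, where cathepsins degrade it to a short remnant called CLIP, H2-DM exchanges CLIP for peptide, and H2-O restrains H2-DM. ILC2s can carry class II molecules and interact with CD4+ T cells, while B cells, dendritic cells and macrophages are the usual presenting cells. The genes are switched on together by CIITA, which does not bind DNA but docks on factors at shared promoter elements, among them the X box bound by RFX and the Y box bound by NF-Y.

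Promoter stretches of 4 members are shown because class II genes are known for such shared elements. In the RefSeq promoter windows for GRCm38.p6, which run from 250 bases before to 50 bases after a start site, 7 of the 10 members had a window. A pattern of AAC, then 20 to 30 bases of any kind, then TGATTGG was searched on both strands. The pattern was chosen after these promoters were read. It was present in a window of 6 of those 7 members, H2-DMa being the exception, and in 346 of 32851 windows of all genes (1.05%). TGATTGG alone was in 7.82% of all windows. The matches of 4 members follow, 5′ to 3′ on the strand of the gene, with the letters of the searched pattern in capitals.
H2-Aa: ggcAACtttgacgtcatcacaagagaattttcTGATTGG
H2-Eb1: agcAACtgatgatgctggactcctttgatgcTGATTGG
H2-Ob: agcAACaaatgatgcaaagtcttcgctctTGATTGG
H2-Oa: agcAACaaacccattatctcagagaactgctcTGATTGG
They lie at chr17:34287867-34287905 on the minus strand for H2-Aa and, on the plus strand, at chr17:34305775-34305812 for H2-Eb1, chr17:34238817-34238852 for H2-Ob and chr17:34092302-34092340 for H2-Oa. The printed stretches begin 82, 92, 88 and 77 bases before the RefSeq start site, in the order printed. Between AAC and TGATTGG lie 26, 25, 23 and 26 bases. A match is a description of the letters, and factor binding was not measured. H2-Oa and H2-Ob both held the pattern before their RefSeq start sites. In the annotation that gave the gene positions below, H2-Oa starts at chr17:34092340, the last base of its match. The distance for H2-Oa therefore depends on the annotation.

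The 6 libraries differed in more than the exposure. Total FPKM, the deposited unit, ran from 420941 to 449523 in Con and from 431613 to 489262 in Abx, and 8574 to 9203 genes reached 1 FPKM in Con against 7074 to 8193 in Abx. The number of reads is unknown, and Polr2h, an RNA polymerase subunit that every cell uses, was listed at 0 in Abx 3 and at 9.44 to 71.3 FPKM in the other 5 libraries, so a value of 0 is given as listed at 0. Xist, the RNA that coats the inactive X in females, was at 3.78 to 5.09 FPKM in Con and listed at 0 in Abx. Eif2s3y, a Y-linked gene, ranged over 0.03 to 0.86 FPKM across Con and 11.8 to 24.4 FPKM in the Abx libraries. Exposure and the sex composition of the pups therefore cannot be told apart in any comparison here. In bulk RNA, fewer cells of a type and less RNA per cell cannot be told apart either.

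By mean level, the members in ILC2s from the Abx group lay on both sides of control, though none lay below it without overlap. The I-A beta chain H2-Ab1, H2-DMa, H2-Ob and the invariant chain Cd74 were higher in every Abx library than in every Con library. The alpha chain H2-Aa, the I-E beta chain H2-Eb1, H2-DMb2 and H2-Oa overlapped between the groups, with H2-Oa lower in the Abx mean. Ciita was at or under 0.01 FPKM in all 6 libraries.

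**Figure D1:**
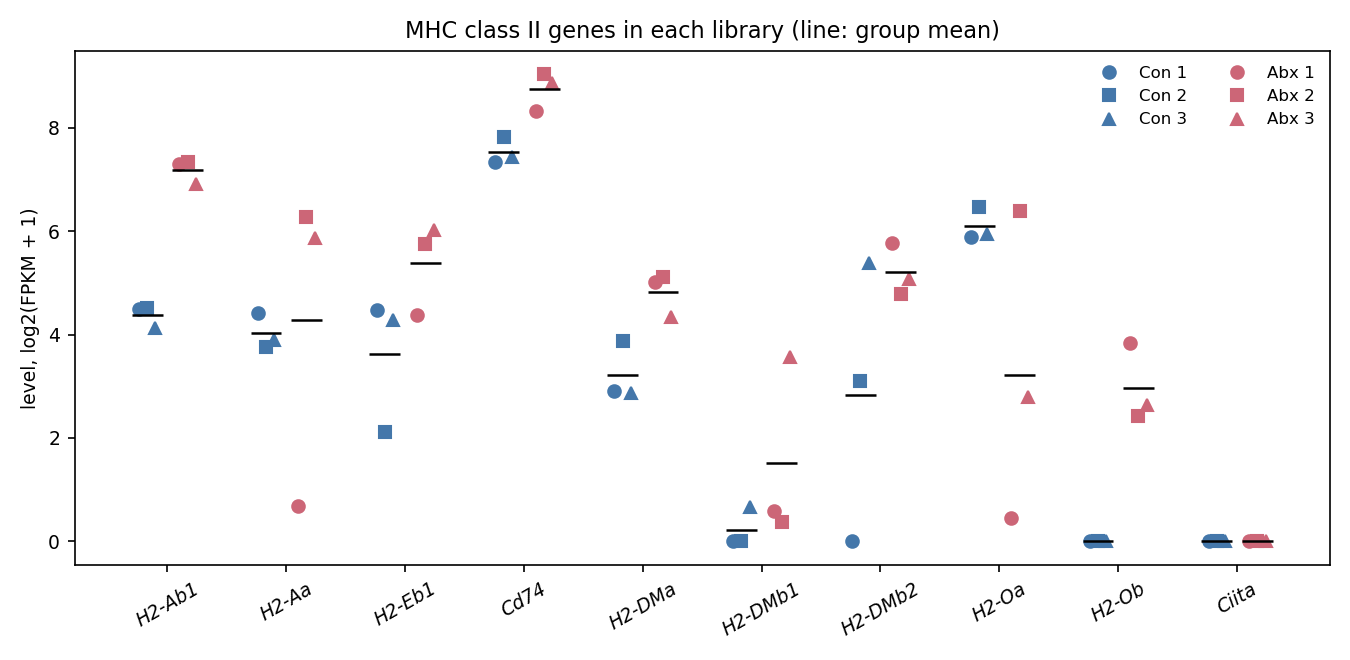
Level of each of the 10 class II genes in each library, as log2(FPKM + 1); blue marks are Con, red marks are Abx, the shape gives the replicate number and the line is the group mean of 3 libraries. H2-Ab1, Cd74, H2-DMa and H2-Ob have all 3 Abx marks above all 3 Con marks, whereas Abx 1 lies at 0.60 FPKM for H2-Aa and 0.36 FPKM for H2-Oa.

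The I-A heterodimer, the main class II molecule of C57BL/6 mice, is made of the H2-Aa alpha and H2-Ab1 beta chains. H2-Ab1 (ENSMUSG00000073421, chr17:34257689-34269419 in GRCm38) was at 21.5, 21.8 and 16.5 FPKM in Con 1 to 3 and at 157, 160 and 119 FPKM in Abx 1 to 3. The lowest Abx library was thus more than 5 times the highest Con library. Its mean was 19.9 ± 3.0 FPKM for Con and 145 ± 23.1 FPKM for Abx (SD, n = 3 each), 7.30-fold higher, and the difference of mean log2(FPKM + 1) was 2.80 with a standard error of 0.29. By mean level, H2-Ab1 ranked 2620 among the 10107 genes at 1 FPKM or more in Con and 477 among the 9670 such genes in Abx.

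The partner chain did not follow in all libraries. H2-Aa (ENSMUSG00000036594, chr17:34282744-34287823) was at 20.3, 12.5 and 13.9 FPKM in Con 1 to 3 and at 0.60, 75.9 and 57.7 FPKM in Abx 1 to 3. Abx 2 and Abx 3 were above every Con library, while Abx 1, whose H2-Ab1 level was 157 FPKM, was below every Con library. The difference of mean log2(FPKM + 1) was 0.25 with a standard error of 1.37. It was 2.05 without Abx 1, but -0.74 without Abx 2 and -0.55 without Abx 3, and it was -0.07 with a pseudocount of 0.1 in place of 1, so no direction is given for H2-Aa. The ratio of H2-Aa to H2-Ab1 was 0.942, 0.573 and 0.845 in Con 1 to 3 and 0.00382, 0.473 and 0.486 in Abx 1 to 3. All 3 Abx ratios were below the lowest Con ratio.

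H2-Eb1 encodes the beta chain of I-E. C57BL/6 mice do not express the I-E alpha chain, and its gene H2-Ea-ps was listed at 0 in all 6 libraries. H2-Eb1 (ENSMUSG00000060586, chr17:34305867-34316674) was at 21.4, 3.32 and 18.5 FPKM in Con 1 to 3 and at 19.8, 52.8 and 63.8 FPKM in Abx 1 to 3. Abx 1 lay between Con 3 and Con 1, and the other Abx libraries were above every Con library. The difference was 1.75 on the log2(FPKM + 1) scale with a standard error of 0.75, and it was 0.997 without Con 2. H2-Eb2, another beta chain gene of the region, was listed at 0 in all 6 libraries.

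Summed over the 3 classical chains, the level was 63.2, 37.6 and 48.9 FPKM in Con 1 to 3 and 177, 289 and 240 FPKM in Abx 1 to 3. The sum did not overlap between the groups. In Abx 1, H2-Ab1 made up 157 of the 177 FPKM.

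The invariant chain was the most abundant member in every library. Cd74 (ENSMUSG00000024610, chr18:60803848-60812652) was at 160, 226 and 173 FPKM in Con 1 to 3 and at 321, 525 and 465 FPKM in Abx 1 to 3, with no overlap. The mean was 186 ± 35.1 FPKM for Con and 437 ± 105 FPKM for Abx (SD, n = 3 each), 2.35-fold higher, and the log2(FPKM + 1) difference was 1.21 with a standard error of 0.26. Since H2-Ab1 had the larger fold, the ratio of Cd74 to H2-Ab1 was 7.42, 10.4 and 10.5 in Con 1 to 3 and 2.04, 3.27 and 3.92 in Abx 1 to 3. Set against the sum of the 3 classical chains, Cd74 was at 2.53, 6.02 and 3.54 times that sum in Con and at 1.81, 1.81 and 1.94 times in Abx. The Abx libraries thus had a lower level of Cd74 relative to the chains, and they lay closer together in this ratio than the Con libraries.

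H2-DM, the editor that replaces CLIP with peptide, pairs the H2-DMa alpha chain with a beta chain from H2-DMb1 or H2-DMb2. H2-DMa (ENSMUSG00000037649, chr17:34119541-34139101) was at 6.51, 13.8 and 6.32 FPKM in Con 1 to 3 and at 31.4, 33.4 and 19.3 FPKM in Abx 1 to 3. Every Abx library was above every Con library, with means of 8.87 ± 4.25 FPKM and 28.0 ± 7.62 FPKM (SD, n = 3 each) and a log2(FPKM + 1) difference of 1.60 with a standard error of 0.52. Its annotated exons share 10.4% of their bases with Brd2 on the opposite strand, a chromatin reader that was at 5.94 to 9.26 FPKM across Con and 16.3 to 20.2 FPKM in Abx. No source used here says that counting used strand, so reads of the shared stretch cannot be assigned to either gene.

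The beta chain genes carried zeros and a wide spread. H2-DMb2 (ENSMUSG00000037548, chr17:34143307-34151555) was listed at 0 in Con 1 and was at 7.60 and 41.0 FPKM for Con 2 and 3, against 53.3, 26.5 and 32.5 FPKM in Abx 1 to 3. Con 3 lay above Abx 2 and Abx 3, so the groups overlapped. The log2(FPKM + 1) difference of 2.37 had a standard error of 1.23. It was 0.96 without Con 1, 3.65 without Con 3, and 3.51 and 4.62 with pseudocounts of 0.1 and 0.01.

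H2-DMb1 (ENSMUSG00000079547, chr17:34153072-34160230) was listed at 0 in Con 1 and 2 and was at 0.58 FPKM in Con 3, 0.50 FPKM in Abx 1, 0.29 FPKM in Abx 2 and 10.9 FPKM in Abx 3. It reached 1 FPKM in Abx 3 alone and was not tested. The longest transcripts of H2-DMb1 and H2-DMb2 were identical at 87.7% of 1144 aligned positions, and 11.3% and 10.3% of their 100-base windows occur in the other gene, so the split of reads between them is uncertain. Their sum was listed at 0 in Con 1, was at 7.60 and 41.5 FPKM for Con 2 and 3, and was at 53.8, 26.8 and 43.4 FPKM in Abx 1 to 3. In transcript sequence, no other member shared a 100-base window with another gene.

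H2-O, the inhibitor of H2-DM, pairs the H2-Oa alpha chain with the H2-Ob beta chain and is known mainly from B cells and thymic epithelium. H2-Ob (ENSMUSG00000041538, chr17:34238903-34254414) was listed at 0 in all 3 Con libraries and was at 13.4, 4.34 and 5.18 FPKM in Abx 1 to 3. No fold is given against a group listed at 0. H2-Ob passed the filter of at least 1 FPKM in at least 3 libraries only through the Abx group, so it had to differ.

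The mean of the alpha chain differed in the other direction. H2-Oa (ENSMUSG00000024334, chr17:34092340-34095234) was at 57.8, 87.5 and 60.6 FPKM in Con 1 to 3 and at 0.36, 82.5 and 5.97 FPKM in Abx 1 to 3. Abx 2 lay within the Con range, and Abx 1 and Abx 3 were below every Con library. The log2(FPKM + 1) difference was -2.89 with a standard error of 1.31, and it was -1.50 without Abx 1 and -4.47 without Abx 2. In Con, H2-Oa was the second most abundant of the members by mean level, at 68.6 FPKM, without any listed level of its partner chain. In Abx 1 to 3, the ratio of H2-Oa to H2-Ob was 0.0269, 19.0 and 1.15. H2-Oa shares 22.8% of its exon bases with BC051537 on the opposite strand, which was at 0.16 to 1.80 FPKM in Con and listed at 0 in Abx.

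**Figure D2:**
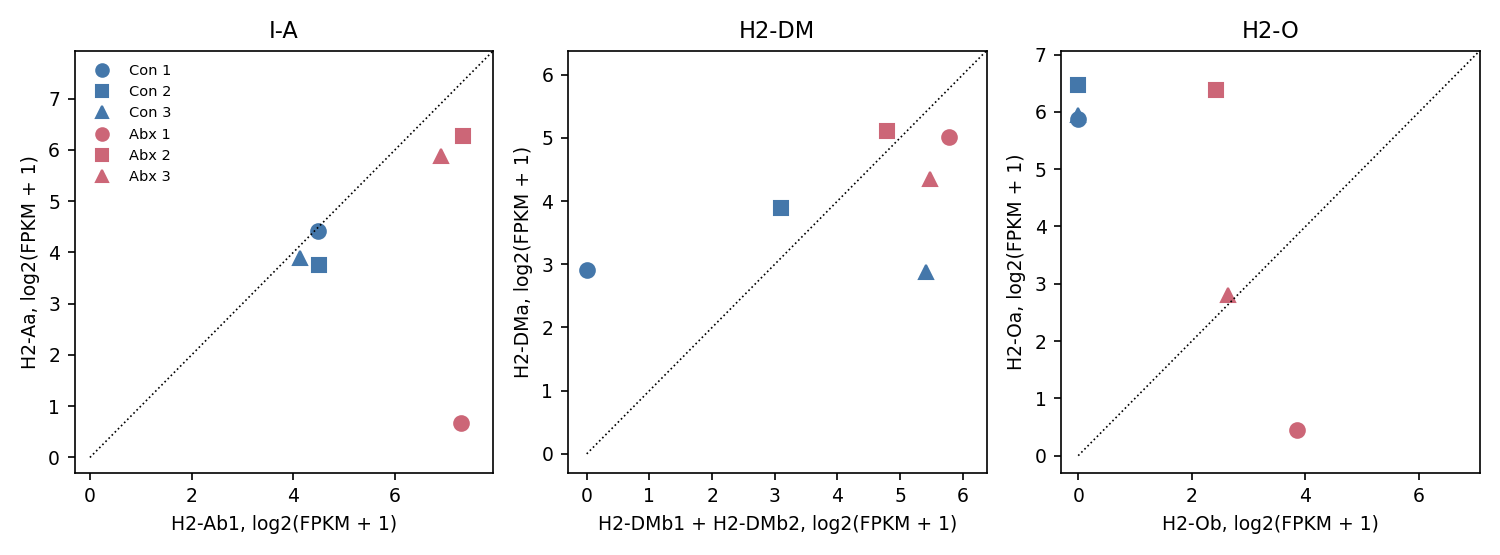
Levels of the chains of I-A, H2-DM and H2-O plotted against each other for each library, as log2(FPKM + 1), with the dotted line at equal levels; blue is Con, red is Abx, and the shape gives the replicate number. Abx 1 has H2-Ab1 at 157 FPKM with H2-Aa at 0.60 FPKM, and the 3 Con libraries have H2-Oa without H2-Ob.

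Ciita (ENSMUSG00000022504, chr16:10480059-10528418), the coactivator that turns on the class II genes, was listed at 0, 0.01 and 0.01 FPKM in Con 1 to 3 and at 0, 0.01 and 0 FPKM in Abx 1 to 3. These values lay at the smallest steps that the files print, so no difference in Ciita could be measured. The H2-Ab1 and Cd74 levels given above were measured in the same libraries.

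Counted over the 8 tested members, 4 had every Abx library above every Con library, where 8.49% of the 8718 genes tested did. H2-Ob, 1 of these 4, had to differ, since it passed the filter only through Abx. None had every Abx library below (8.73% of the genes tested). The 2 members not tested, H2-DMb1 and Ciita, overlapped. A gene was called where limma gave a fold change over 2 and a Benjamini-Hochberg adjusted p under 0.05 over all genes tested. H2-Ab1 was the 1 member called, and 4 genes were called higher in all (0.0459% of those tested), with 5 called in either direction (0.0574%). These shares are given as background, and nothing is read from the members' count, since the members were selected on this comparison. The call of H2-Ab1 was lost in each of the 6 fits that left out 1 library, with a pseudocount of 0.1 or 0.01, with each library centred on its median, without the filter on low values and with the replicate number as a block. Its difference was 2.65 to 2.94 over 11 alternative settings of the fit, leaving out each library included. The median log2(FPKM + 1) difference was 1.44 over all 10 members, and 1.29 without H2-Ob, beside -0.06 over all genes tested. In the middle 90% of the genes tested the difference ran from -2.05 to 1.48.

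**Figure D3:**
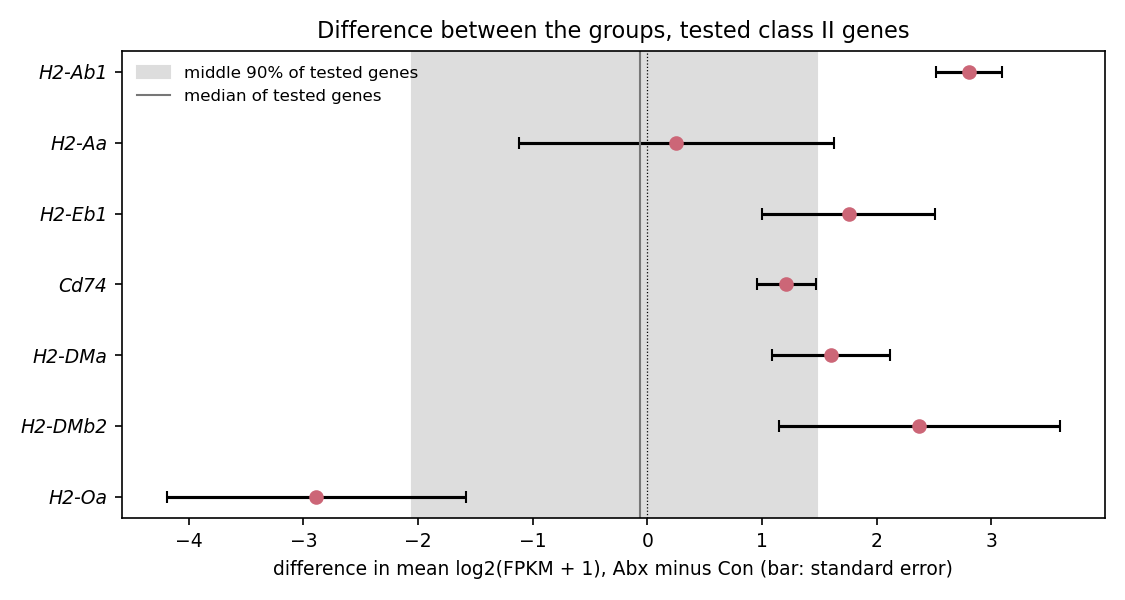
Difference of mean log2(FPKM + 1), Abx minus Con, with its standard error (3 libraries per group) for 7 of the 8 tested members; H2-Ob, listed at 0 in Con, is not drawn, and the grey band spans the middle 90% of the 8718 genes tested. H2-Ab1, H2-Eb1, H2-DMa and H2-DMb2 lie above the band, H2-Oa lies below it, and Cd74 and H2-Aa lie inside.

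The Abx libraries also differed among themselves. Against the Con mean, the median log2(FPKM + 1) difference of the 10 members was 0.78 in Abx 1, 1.92 in Abx 2 and 2.04 in Abx 3, while the Con libraries lay between -0.11 and 0.07. Beyond the members above every Con library in all 3 Abx libraries, H2-DMb2 was above in Abx 1 alone and H2-DMb1, not tested, in Abx 3 alone. H2-Aa and H2-Eb1 were above in Abx 2 and Abx 3. H2-Aa was below every Con library in Abx 1, and H2-Oa in Abx 1 and Abx 3. The share of all genes above or below in a single library was not computed, so nothing is read from these positions. The summed level of all 10 members was 287, 373 and 330 FPKM in Con 1 to 3 and 597, 961 and 780 FPKM in Abx 1 to 3, of which Cd74 was the largest part.

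Across the 6 libraries, members with a mean of at least 5 FPKM were compared with H2-Ab1 by Pearson r on log2(FPKM + 1). The r was 0.927 for H2-DMa, 0.910 for Cd74, 0.639 for H2-Eb1, 0.540 for H2-DMb2, 0.034 for H2-Aa and -0.617 for H2-Oa. H2-DMb1 and H2-Ob, with lower means, had 0.418 and 0.958. The 3 Con values of H2-Ob are 0 and it passed the filter only through Abx, so nothing is read from its r. Among 6024 genes with a mean of at least 5 FPKM, the 5 most like H2-Ab1 were Tcrg-V4 (0.990), a T cell receptor gamma segment, Slbp (0.990), which binds histone mRNA, Hist1h2ao (0.989), a replication-dependent histone with near-identical copies, Ccne2 (0.989), a cyclin of S phase entry, and Gm11336 (0.986). In Con, Tcrg-V4 was listed at 0, Ccne2 was at or under 0.02 FPKM and Gm11336 was at 2.49 to 4.27 FPKM. Tcrg-V4, Ccne2 and Gm11336 thus reached the mean of 5 FPKM only through Abx, so nothing is read from their r either. All the correlations of this paragraph describe 6 libraries that fall into the exposure groups, which all these values share.

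The rest of the class II pathway was described by 29 further genes: regulators, endosomal enzymes, surface turnover, costimulation and other chains. Of these, 19 passed the filter, and none was called in either direction by limma. At an unadjusted p under 0.05, 1 of the 19 was higher in Abx and 0 were lower, where 11.0% of all genes tested passed that limit in either direction. The tested partners had a mean higher in Abx for 6 and lower for 13, with a median log2(FPKM + 1) difference of -0.31, and the median over all 29 was -0.18. The difference between members and partners was not tested.

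Interferon gamma signaling is the classical inducer of Ciita. Ifngr1, a chain of the interferon gamma receptor, was at 112, 79.4 and 94.3 FPKM in Con 1 to 3 and at 167, 130 and 176 FPKM in Abx 1 to 3. It was the only tested partner without overlap, with a log2(FPKM + 1) difference of 0.72 and a standard error of 0.25, and did not pass the test (limma, Benjamini-Hochberg adjusted p = 0.294). Irf1, which acts downstream of the receptor, differed by 0.72 with a standard error of 0.61 (limma adjusted p = 0.732), and the receptor kinase gene Jak2 by 0.67 with a standard error of 0.57 (limma adjusted p = 0.738).

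Among the factors that CIITA docks on, Rfx5 was at 2.24 FPKM in Con 3 and at or under 0.04 FPKM elsewhere. Rfxap and Rfxank, its RFX partners, and the NF-Y genes Nfyb and Nfyc overlapped between the groups. Creb1, which binds beside RFX, had the second most negative difference of the tested partners, -1.24 and a standard error of 0.72 (limma adjusted p = 0.608). The most negative was that of Cd83, which stabilizes class II at the surface, with -1.27 and a standard error of 1.05 (limma adjusted p = 0.727). The third was Ifi30, a thiol reductase of antigen processing, with -1.20 and a standard error of 1.42 (limma adjusted p = 0.822).

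Ctss, the cathepsin that makes the last cuts in the invariant chain, was at 67.0, 70.2 and 99.9 FPKM in Con 1 to 3 and at 35.5, 156 and 157 FPKM in Abx 1 to 3. Abx 1 was again the library below every Con library, as for H2-Aa. Its difference was 0.30 with a standard error of 0.57 (limma adjusted p = 0.892). The costimulatory genes Cd80, Cd86 and Cd40 and the class II ubiquitin ligase gene March1 were under 1 FPKM in all 6 libraries.

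**Figure D4:**
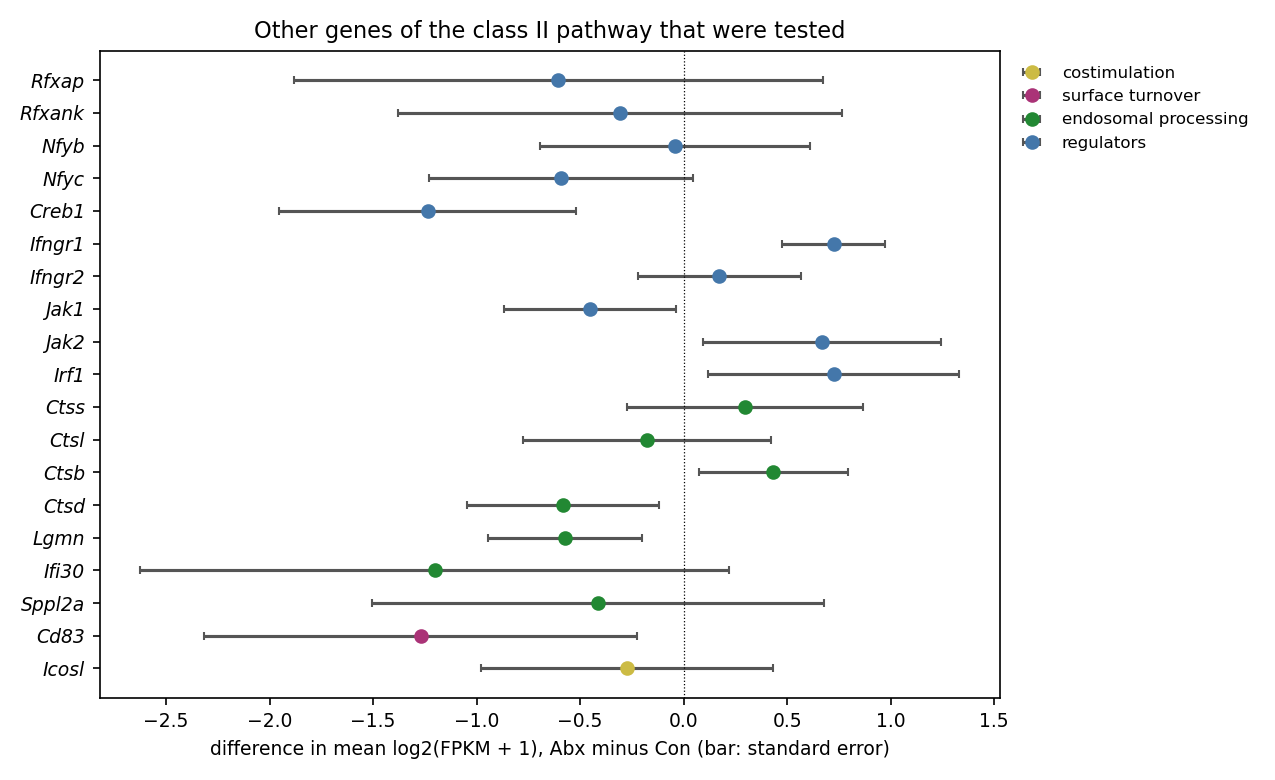
Difference of mean log2(FPKM + 1), Abx minus Con, with its standard error (3 libraries per group) for the 19 tested genes of the class II pathway that are not members; colors give their roles. The values run from -1.27 for Cd83 to 0.72 for Ifngr1 and Irf1, and none was called.

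MHC class I genes were measured in the same libraries as a comparison. H2-K1, a classical heavy chain, was at 767, 897 and 770 FPKM in Con 1 to 3 and at 720, 746 and 792 FPKM in Abx 1 to 3, with a difference of -0.10 and a standard error of 0.16 (limma adjusted p = 0.867). The difference was -0.14 with a standard error of 0.16 for H2-D1 (limma adjusted p = 0.814), and 0.09 with a standard error of 0.21 for B2m, the light chain (limma adjusted p = 0.908). Tap1, which carries peptide into the endoplasmic reticulum, differed by 0.71 with a standard error of 0.77 (limma adjusted p = 0.800). Nlrc5, the class I counterpart of Ciita, was at or under 0.04 FPKM in 5 libraries and at 1.17 FPKM in Abx 3. Tapbp, which bridges class I to the peptide transporter, was at 54.5, 90.4 and 59.9 FPKM in Con 1 to 3 and at 30.8, 38.9 and 30.3 FPKM in Abx 1 to 3, with a difference of -0.99 and a standard error of 0.32 (limma adjusted p = 0.266). Pdia3, an enzyme of the loading complex, was also lower in every Abx library than in every Con library, with a difference of -0.30 and a standard error of 0.22 (limma adjusted p = 0.706). Of the 16 class I genes listed, 15 were tested and none was called. Whether class II and class I genes differed in their response was not tested.

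Because class II genes are abundant in other cells, markers were read in each library. The sort took CD45+ CD90.2+ CD25+ cells that were negative for lineage markers of T, B and myeloid cells. The 12 ILC2 markers summed to 2290 to 2470 FPKM across Con and 1230 to 1510 FPKM in Abx. Areg, Arg1 and Icos together made up most of this sum in every library. By mean log2(FPKM + 1), 4 of the 12 were higher in Abx (Il7r, Il17rb, Thy1 and Klrg1, all overlapping) and 8 were lower. None of the 11 tested was called. Of the 12, 0 had every Abx library above every Con library and 5 had every Abx library below. The shares of all genes tested were 8.49% and 8.73%. The 5 lower markers were Areg (657 to 783 FPKM in Con, 197 to 393 FPKM in Abx), Arg1 (577 to 675 against 377 to 525 FPKM), Icos (240 to 289 against 82.4 to 120 FPKM), Calca (158 to 235 against 16.6 to 119 FPKM) and Il1rl1. Il1rl1 was not tested, and its Con 1 and Abx values lay near the floor of the files. Gata3, the lineage transcription factor, was at 76.2, 97.5 and 76.1 FPKM in Con 1 to 3 and at 95.8, 33.9 and 46.0 FPKM in Abx 1 to 3, and Il1rl1, the IL-33 receptor, was at 0.89 and 2.94 FPKM for Con 2 and 3 and at or under 0.06 FPKM in the others.

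B cell markers stood beside the class II genes in the direction of their sum. The 14 listed markers summed to 409 to 519 FPKM across Con and 857 to 982 FPKM in Abx, of which the immunoglobulin genes Ighm and Igkc were the largest part. Without both, the sum was 140 to 210 FPKM across Con and 171 to 260 FPKM in Abx, which overlapped. Of 10 tested B cell markers none was called. Of these 10, 3 had every Abx library above every Con library and 2 had every Abx library below, beside 8.49% and 8.73% of the genes tested. The 4 markers not tested overlapped. Ms4a1, which encodes CD20, was at 5.39, 3.98 and 5.25 FPKM in Con 1 to 3 and 19.8, 11.8 and 10.8 FPKM in Abx 1 to 3. Cd79b, a signaling chain of the B cell receptor, was at 69.5, 117 and 69.8 FPKM across Con and 56.4, 31.0 and 57.4 FPKM in Abx. The B cell factor Pax5 was listed at 0 in Con and was at 2.33, 0.33 and 0 FPKM in Abx 1 to 3, Ebf1 was at or under 0.09 FPKM in all libraries, and Cr2 was listed at 0 in all. The part of B cell RNA in the class II levels was not tested.

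Full sums of dendritic cell and macrophage markers overlapped between the groups, and without the most broadly expressed gene the conventional dendritic cell and macrophage sums were lower in every Abx library. Conventional dendritic cell markers summed to 36.4 to 39.9 FPKM across Con and 1.66 to 96.9 FPKM in Abx, and without Ccr7, a homing receptor that lymphocytes also use, to 10.5 to 16.3 FPKM across Con and 0.22 to 4.56 FPKM in Abx. Xcr1, a receptor of cross-presenting dendritic cells, was at 8.13 to 16.3 FPKM in Con and 0.19 to 4.14 FPKM in Abx. Xcr1 alone made up most of the sum without Ccr7 in every library, and it was the 1 tested gene of those 8. Flt3 and Clec9a were at or under 0.03 FPKM, and Cd209a and Batf3 were listed at 0, in all 6 libraries. Plasmacytoid dendritic cell markers summed to 59.5 to 90.3 FPKM in Con against 82.0 to 203 FPKM in Abx, and without Bst2, which other cells also express, to 4.98 to 10.9 FPKM in Con against 1.95 to 7.70 FPKM in Abx. Siglech was at or under 0.03 FPKM in all 6. Tcf4, of the same list, was at 0.06 to 0.66 FPKM in Con and 1.11 to 1.56 FPKM in Abx. Ccr9 overlapped, at 4.32 to 10.8 FPKM in Con and 0.54 to 6.59 FPKM in Abx. Macrophage and monocyte markers summed to 173 to 435 FPKM across Con and 227 to 422 FPKM in Abx, and without Lyz2 to 72.0 to 83.6 FPKM across Con and 33.3 to 56.2 FPKM in Abx. Csf1r was at or under 0.36 FPKM, and Mrc1, Fcgr1, Marco and Siglecf were under 1 FPKM, in all 6 libraries. Other markers of this list were present and overlapped between the groups, with C1qa at 0.62 to 24.0 FPKM, C1qb at 0.39 to 32.4 FPKM, C1qc at 0.35 to 22.1 FPKM, Cd14 at 0.10 to 39.8 FPKM and Cd68 at 0.22 to 30.2 FPKM over the 6 libraries.

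Alveolar type 2 epithelium also carries class II molecules. Its 7 markers summed to 37.2 to 49.0 FPKM across Con and 52.4 to 76.3 FPKM in Abx. Sftpc, a surfactant protein of these cells, was at 36.8, 11.5 and 11.3 FPKM in Con 1 to 3 and 52.3, 48.3 and 56.1 FPKM in Abx 1 to 3, while Sftpb and Slc34a2 were listed at 0 in all 6. Sftpa1, another surfactant protein, was at 7.63, 18.2 and 7.49 FPKM in Con 1 to 3 and at 0.12, 0.03 and 4.99 FPKM in Abx 1 to 3, so its groups differed in the other direction from Sftpc. The epithelial gene Epcam was at 4.48 to 17.6 FPKM in Con, at 27.8 FPKM in Abx 2 and listed at 0 in Abx 1 and 3. ILC3 markers, taken since ILC3s carry class II, summed to 24.9 to 51.2 FPKM across Con and 4.91 to 32.5 FPKM in Abx. T cell markers summed to 343 to 375 FPKM across Con and 488 to 589 FPKM in Abx, and Cd3g, Lat and Zap70 together made up most of this sum. Of the 7 tested, none was called. Cd3d, Cd3g, Cd8b1 and Lat had every Abx library above every Con library, and Zap70 had every Abx library below. These are 4 and 1 of the 7, beside 8.49% and 8.73% of the genes tested. Cd3e and Trac overlapped, as did Cd4, Cd8a and Cd5, which were not tested. The part of these cells in the class II levels was not tested.

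**Figure D5:**
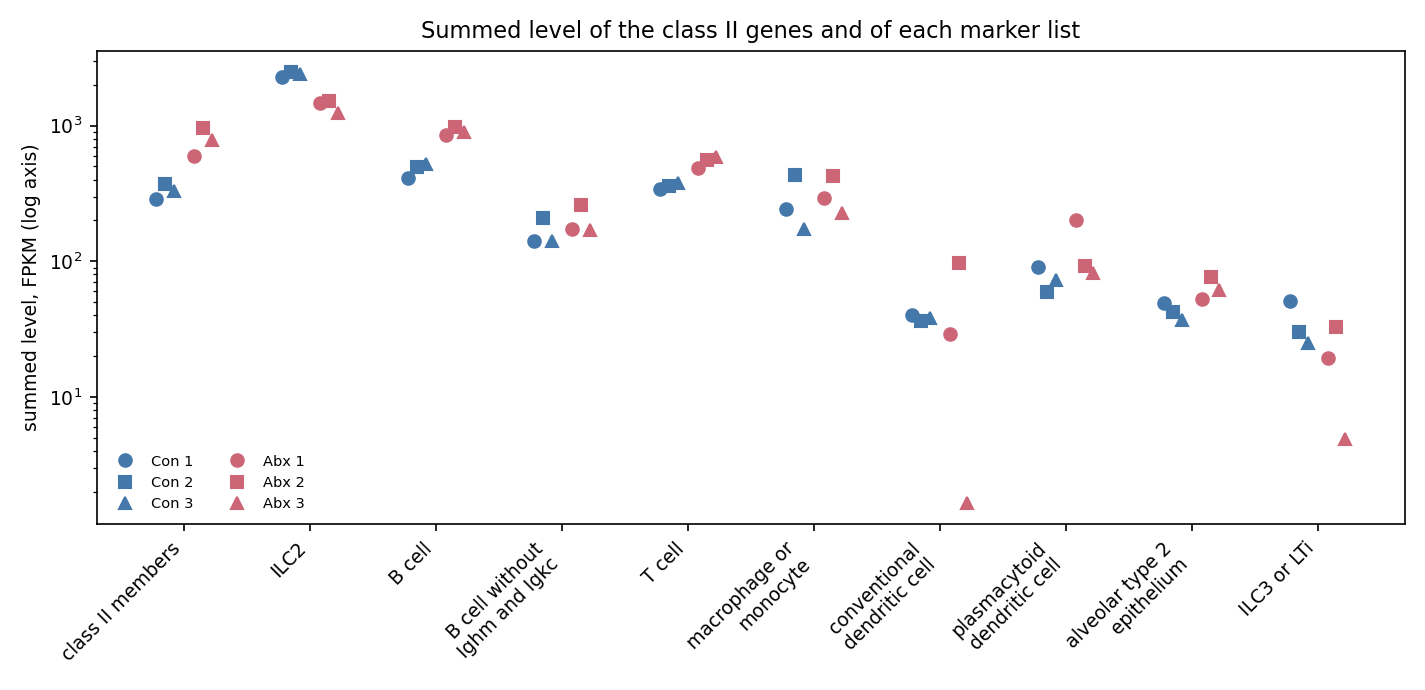
Summed FPKM of the 10 class II members and of each marker list in each library, on a log axis; blue is Con, red is Abx, and the shape gives the replicate number. The class II, B cell, T cell and alveolar type 2 sums have all 3 Abx libraries above all 3 Con libraries, the ILC2 sum has them below, and the B cell sum without Ighm and Igkc overlaps.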

How the data were processed

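SMART-seq libraries of sorted neonatal lung ILC2s (3 Abx, 3 Con, grouped by the sample labels) were analysed from the deposited files, which give FPKM (fragments per gene scaled by exon length and by mapped reads). Per the methods, the authors trimmed reads with Cutadapt, mapped them with HISAT2 and computed FPKM with StringTie. The methods name a human annotation, whereas 55134 of the 55394 identifiers are in GENCODE M21 (mouse, GRCm38), which gave positions here. The submitters' processing notes also list Bowtie and older mouse builds, with no role. FPKM divides by length and total, so a rise in a few abundant genes lowers the others.

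No whole-read step could be found among the lowest values. The depth is therefore unknown, no counting error is given, and the count test of the authors was left out.

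The 8718 genes that reached 1 FPKM in 3 or more of the 6 libraries were tested on log2(FPKM + 1), a scale that understates changes of low genes, with limma 3.58.1 in R 4.3.3 (lmFit, eBayes with trend), two-sided, with Benjamini-Hochberg adjustment. As in the methods, calls needed a change over 2-fold with the adjusted p under 0.05. The members and all gene lists were chosen with earlier results of these data known. Named genes were all members, the 3 tested partners with the largest difference in each direction, the 5 genes most like H2-Ab1, 5 class I genes and defining markers. Ctss, the RFX and NF-Y genes, the costimulatory genes, the other chains, Tapbp, Pdia3, further markers and Polr2h were named after their values were seen. Some listed genes are not reported here by name. Alternatives were other pseudocounts, scalings and filters, a replicate block and leaving out each library.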

Additional observations from a re-analysis of the deposited data

How the results depend on the processing

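The main comparison called 4 genes higher and 1 lower in Abx, with 1 class II member (H2-Ab1) and 0 partners. With pseudocounts of 0.1 or 0.01, with median centring, without the filter on low values and with the replicate number as a block, 0 genes were called higher, 0 lower and 0 members. Leaving out 1 library at a time gave 0 genes called higher, 0 to 2 lower and 0 members. Quantile normalization, and a filter at a mean of 5 FPKM, each gave 5 higher, 2 lower and 1 member. Without the fold limit there were 4 higher, 1 lower and 1 member. At the unadjusted p, with the fold limit kept, there were 315 higher, 499 lower and 4 members (H2-Ab1, H2-Ob, H2-DMa and Cd74). At any fold, 11.0% of the 8718 genes tested had an unadjusted p under 0.05 in either direction. The members were selected on this comparison and H2-Ob had to differ, so nothing is read from the members' counts. Partners called were 0 in all of these. The cause of the lost calls was not tested.

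The median log2 difference of the members was 1.44, from 1.14 to 1.899 (without Abx 1) with 1 library left out, and 1.79 and 1.80 with pseudocounts of 0.1 and 0.01. That of the partners was -0.18, from -0.17 to 0.005 (without Abx 2) with 1 library left out, and -0.28 and -0.25 with those pseudocounts. H2-Aa turned negative in 4 of 11 alternatives and ranged from -0.74 to 2.05.

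Libraries with the same replicate number did not deviate together, with correlations of -0.02, -0.03 and 0.01, so the numbers do not pair the samples. With the block, the members' median was 1.44. Precision is limited by 3 libraries per group and by a depth that is unknown.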
